A study of Homo sapiens with 36 samples.

Results

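The genes CKB, EEF1A2, CEND1, MLLT11, ZCCHC12, HAP1, PRPH, NPTXR, C1QL1 and VGF, 10 in all and each with a known role in neurons, were followed in mantle cell lymphoma cells given an inhibitor of the KDM5 histone demethylases. The 10 genes were chosen by symbol from the 58302 gene IDs counted, because earlier results of these data had shown them higher with the inhibitor in at least some lines. Their values in GS716054 against DMSO are therefore a description with no test. Read counts came from 36 RNA sequencing libraries. The cells were JEKO, MINO and UPN-1, which are 3 established human lines of this B-cell cancer. Each line had received DMSO, the vehicle, or GS716054, and was collected after 24 h or 72 h, which made 12 groups of 3 labelled biological replicates. All groups were grown in the same serum-containing RPMI-1640 medium. The labels give no dose of GS716054, and each line stands for a single tumour.

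KDM5 enzymes remove methyl groups from lysine 4 of histone H3, a mark of active gene promoters. Neuronal genes are kept silent outside the nervous system by several repressors, of which the best known is REST, a DNA-binding factor that recruits histone deacetylases and demethylases. KDM5C, a member of the inhibited family, has been found in complexes with REST. CKB and EEF1A2 are the brain-rich forms of creatine kinase and of a translation elongation factor. CEND1, MLLT11 and ZCCHC12 are linked to neuronal differentiation and gene regulation, HAP1 and PRPH to transport and the cytoskeleton, and NPTXR, C1QL1 and VGF to synapses and secretion.

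RefSeq tables held the promoter of 7 of the 10 genes, and 4 of them are printed to show the range of their make-up, from 1 motif match in PRPH to 7 in CKB and VGF, a choice made after the sequences had been seen. Each run is the 250 bases before the annotated start in GRCh38.p14, read 5′ to 3′ on the gene's strand. It covers chr14:103522831-103523080 (minus strand) for CKB, chr11:790091-790340 (minus) for CEND1, chr7:101165570-101165819 (minus) for VGF and chr12:49294897-49295146 (plus) for PRPH. Capitals mark the TATA-box core (TATAA), the CCAAT box, the GC box (GGGCGG) and the cyclic AMP response element (TGACGTCA) on either strand, motifs likewise picked afterwards.
CKB: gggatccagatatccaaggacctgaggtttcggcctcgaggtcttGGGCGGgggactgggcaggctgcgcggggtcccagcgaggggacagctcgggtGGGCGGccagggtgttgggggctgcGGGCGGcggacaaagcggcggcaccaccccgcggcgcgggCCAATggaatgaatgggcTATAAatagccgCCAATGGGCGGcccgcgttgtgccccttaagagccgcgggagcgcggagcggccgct
CEND1: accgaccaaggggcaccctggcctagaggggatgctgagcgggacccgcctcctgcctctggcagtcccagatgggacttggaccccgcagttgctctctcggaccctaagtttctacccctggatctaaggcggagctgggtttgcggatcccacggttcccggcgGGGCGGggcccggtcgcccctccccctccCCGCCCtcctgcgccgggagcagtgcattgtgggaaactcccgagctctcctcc
VGF: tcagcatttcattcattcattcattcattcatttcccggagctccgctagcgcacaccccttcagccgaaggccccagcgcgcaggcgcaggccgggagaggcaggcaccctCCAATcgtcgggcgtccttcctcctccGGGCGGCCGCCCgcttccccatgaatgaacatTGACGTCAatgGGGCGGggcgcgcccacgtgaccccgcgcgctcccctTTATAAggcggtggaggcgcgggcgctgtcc
PRPH: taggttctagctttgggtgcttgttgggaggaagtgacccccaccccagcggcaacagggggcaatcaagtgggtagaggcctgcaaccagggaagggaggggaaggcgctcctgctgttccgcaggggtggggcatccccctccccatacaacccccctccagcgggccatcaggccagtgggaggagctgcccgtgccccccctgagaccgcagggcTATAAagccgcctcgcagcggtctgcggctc

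The 4 promoters differed in make-up. TATAA, the core of the TATA box, began 69 bases before the start in CKB and 31 bases before it in PRPH, and in VGF it was read on both strands of the overlapping matches at 31 and 30 bases. Of the 7 member promoters 4 held TATAA (CKB, VGF, PRPH and HAP1), against 19.6% of all 27305 RefSeq promoters of this length. GGGCGG, the GC box, was found in 5 of the 7 and in 42.3% of all, and CCAAT in 4 of the 7 and in 33.0% of all. TGACGTCA, the cyclic AMP response element, was present in VGF alone, 79 bases before its start, and in 1.77% of all promoters. An exact match to the core of the REST element (RE1) was in none of the 7 windows and in 13 of all promoters (0.0476%). With so rare a match, its absence from 7 windows cannot show whether these genes have REST sites. Inexact matches and bases outside the windows were not searched. CpG dinucleotides numbered 27 in CKB, 27 in VGF, 22 in ZCCHC12, 21 in HAP1, 17 in CEND1, 10 in PRPH and 7 in MLLT11, against a median of 11 over all promoters.

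Gene reads per library ranged from 8784815 to 14970876, with a median of 11926903. Within groups the log2 CPM of library pairs correlated at 0.954 to 0.992 across 14429 genes, with a median of 0.982. Replicate 1 of JEKO at 72 h and replicate 2 of MINO at 72 h stood apart in both their DMSO and GS716054 groups, with correlations of 0.954 to 0.967 to their group. In the bulk libraries, more cells with a transcript and more transcript per cell cannot be told apart. Levels are in CPM, gene counts scaled to a common library size by TMM. A count of 0 over the 3 libraries of a group allows up to 0.0717 to 0.0997 CPM, counting error only.

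All 10 B-cell markers had a mean of at least 1 CPM in every group. Of 10 markers that define neurons, 4 to 5 reached that mean in the JEKO groups, 0 to 1 in MINO and 2 to 3 in UPN-1, while STMN2 and DCX had 0 counts in all 36 libraries. In JEKO the dendritic protein gene MAP2 had group means of 13.3 to 17.6 CPM and SNAP25, of the vesicle fusion machinery, 4.53 to 7.24 CPM, and both were at 0 in all MINO and UPN-1 libraries. The summed level of the list was 22.3 to 44.5 CPM in JEKO, 0.721 to 3.00 CPM in MINO and 2.99 to 7.94 CPM in UPN-1. Within JEKO the sum was 22.3 to 25.3 CPM with DMSO and 29.4 to 31.3 CPM with GS716054 at 24 h, and 27.7 to 36.4 against 36.2 to 44.5 CPM at 72 h. At 72 h in UPN-1 it was 4.09 to 5.49 CPM with DMSO and 5.80 to 7.94 CPM with GS716054. In UPN-1 at 24 h the sums overlapped, at 2.99 to 6.15 CPM with DMSO and 4.11 to 4.75 CPM with GS716054. They overlapped in MINO too, at 0.823 to 1.97 and 0.721 to 1.11 CPM at 24 h. For MINO at 72 h they were 1.61 to 3.00 and 1.70 to 2.82 CPM. No neuron-defining marker was called in any of the 6 inhibitor comparisons, and the part of these markers in the results below was not tested. Of 9 T and NK cell markers, 3 reached a mean of 1 CPM in each MINO group. The summed level of the 9 in MINO was 80.2 to 104 CPM with DMSO and 156 to 182 CPM with GS716054 at 24 h, and 78.3 to 122 against 140 to 205 CPM at 72 h. CD2 was at 0 in all libraries. B-cell markers had 0 edgeR calls in JEKO and UPN-1 (0.0180% to 0.334% of all genes in either direction). In MINO 3 of 10 were called higher at 24 h (1.44% of all genes) and 2 at 72 h (3.51%) by edgeR. Their summed level in MINO was 8926 to 11854 CPM with DMSO and 14535 to 16013 CPM with GS716054 at 24 h, and that of 9 myeloid markers 2.64 to 3.59 and 7.97 to 10.3 CPM. For 10 glial markers, 2 of them at a mean of 1 CPM or more, the sums in these groups were 105 to 120 and 138 to 141 CPM. Those of 7 fibroblast markers were 0.616 to 1.80 and 2.04 to 2.17 CPM. At 72 h in MINO the B-cell sums overlapped, at 8727 to 13241 CPM with DMSO and 12747 to 18165 CPM with GS716054. So did the myeloid (1.84 to 4.82 and 4.08 to 7.01 CPM), glial (120 to 170 and 141 to 266 CPM) and fibroblast sums. At 24 h the B-cell sum was lower with GS716054 in JEKO, at 4328 to 5541 against 5955 to 6366 CPM. In UPN-1 at 24 h it was lower too, at 6457 to 6863 against 7056 to 7232 CPM. At 72 h the B-cell sums overlapped in both lines. The part of these markers in the values of the 10 genes was not tested.

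**Figure D1:**
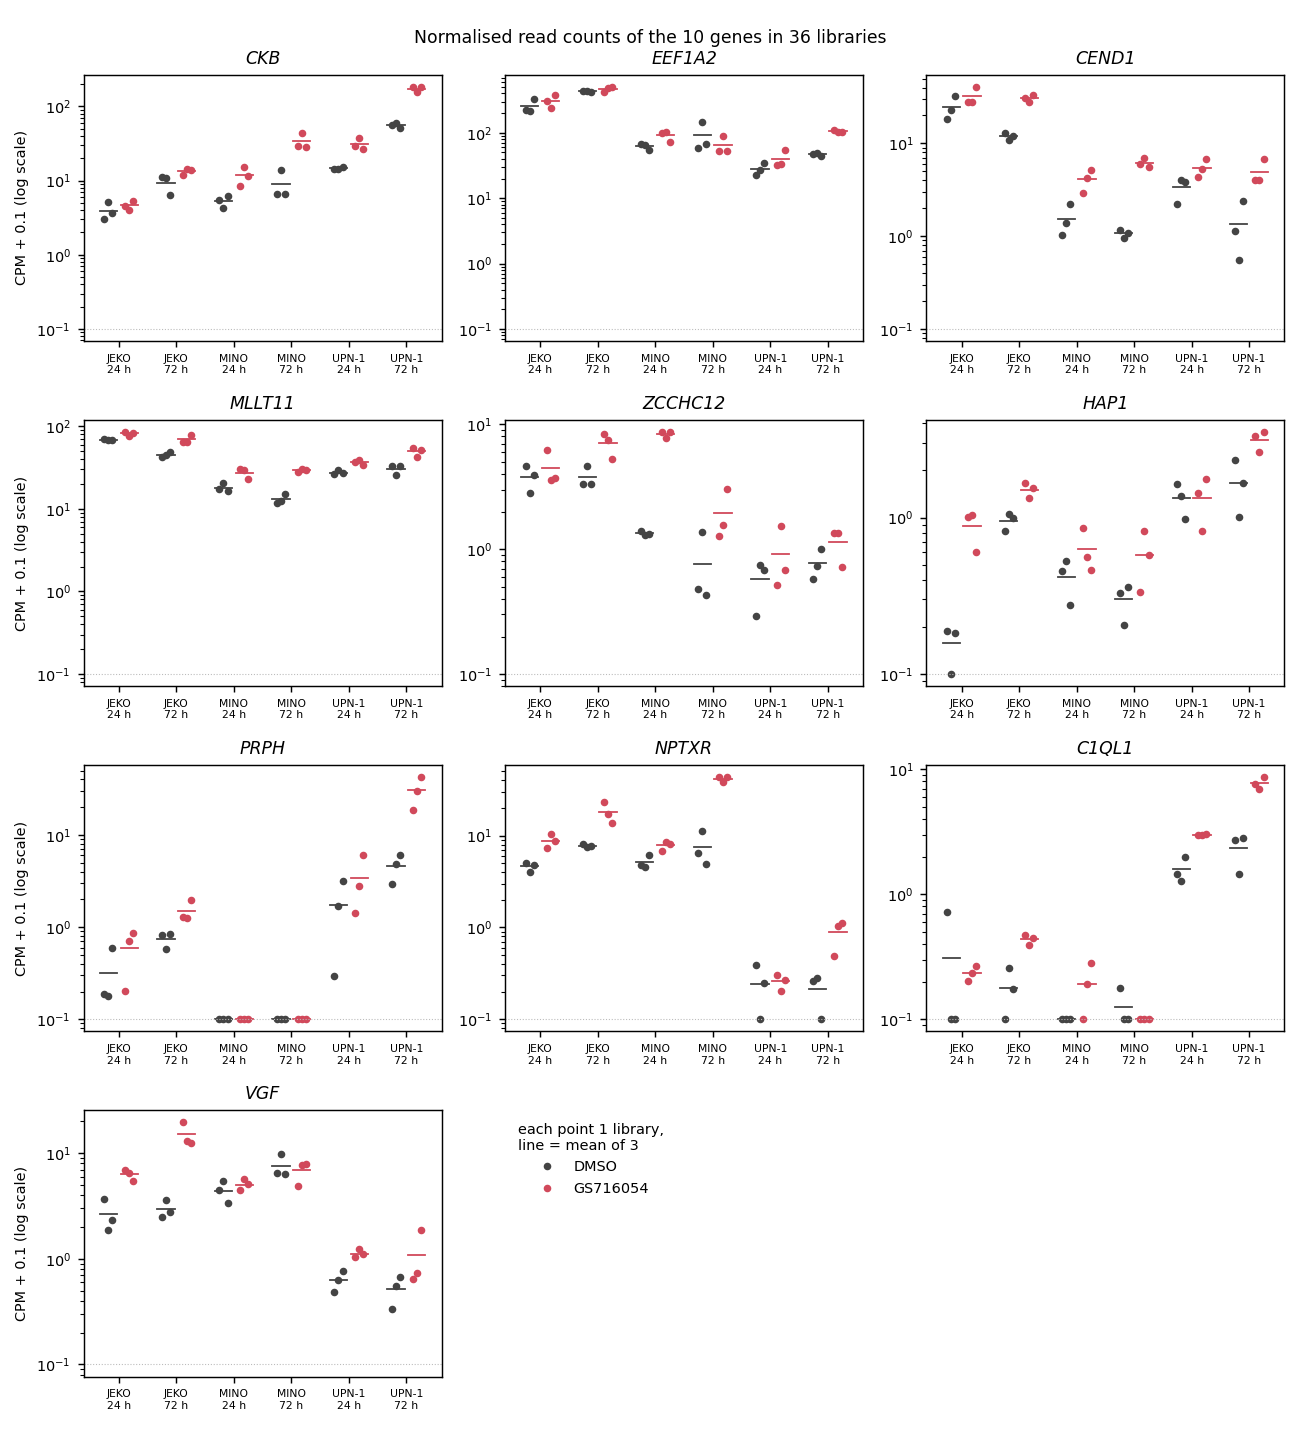
Normalised read counts of the 10 genes in all 36 libraries, on a log axis of CPM + 0.1, by line and hours of treatment. Each point is 1 library, bars are means of 3, and points on the dotted line have 0 counts, as all 12 MINO libraries do for PRPH.

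With GS716054, most of the measurable genes were higher than with DMSO. For CKB, CEND1 and MLLT11 the difference was larger at 72 h than at 24 h in all 3 lines. The same held for NPTXR in JEKO and MINO and for C1QL1 in UPN-1, the lines in which these were tested. The median log2 difference of the tested members at 24 h and 72 h was 0.38 and 0.92 in JEKO, 0.58 and 1.57 in MINO, and 0.73 and 1.23 in UPN-1, against medians of -0.03 to 0.01 over all genes. The number of genes that passed the low-count filter was 9 in JEKO (not C1QL1), 7 in MINO (not C1QL1, HAP1 and PRPH) and 9 in UPN-1 (not NPTXR). A gene was called when its edgeR quasi-likelihood p, after Benjamini-Hochberg adjustment across the line's tested genes, was under 0.05. In JEKO 0 members were called higher at 24 h by edgeR (0% of 16690 genes, of which 662 had an unadjusted p under 0.05) and 1 by DESeq2, and 3 by edgeR at 72 h, namely CEND1, NPTXR and VGF (0.204% of all). In MINO 2 were called higher at 24 h, CEND1 and ZCCHC12 (1.44% of 15028), and 4 at 72 h, CKB, CEND1, NPTXR and MLLT11 (3.51%). In UPN-1 CKB was called higher at 24 h (0.00656% of 15248, the only gene called higher there) and 5 at 72 h, CKB, MLLT11, PRPH, EEF1A2 and C1QL1 (0.275%). These contrasts chose the genes, so nothing is read from the counts. Leaving out 1 library at a time gave 1 to 2 calls in JEKO at 72 h, 0 to 1 in MINO and UPN-1 at 24 h, 4 to 5 in MINO at 72 h and 1 to 6 in UPN-1 at 72 h, where the lowest count came without DMSO replicate 1.

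The replicate numbers paired treated and DMSO libraries within a time, with correlations of same-number deviations of 0.05 to 0.68 and every pair above 0.1 except 1 in JEKO at 24 h. Replicate 3 of MINO at 72 h correlated more with another number (0.44) than with its own (0.37). A fit with a term for each number within each time was therefore added after seeing the data. It leaves 4 residual degrees of freedom, against 8 without this term. It called 0 and 5 members higher in JEKO at 24 h and 72 h (0.0359% and 1.89% of all genes), 5 and 5 in MINO (8.43% and 10.4%), and 4 and 6 in UPN-1 (0.918% and 4.18%). It added MLLT11 and ZCCHC12 in JEKO at 72 h. It added CKB, MLLT11 and EEF1A2 at 24 h and ZCCHC12 at 72 h for MINO, MLLT11, PRPH and EEF1A2 in UPN-1 at 24 h, and CEND1 in UPN-1 at 72 h. EEF1A2 in MINO at 72 h was called lower in that fit (9.80% of all genes), at -0.44 on the log2 scale. The 3 treated libraries all lay above the 3 DMSO libraries for 4 and 8 of the 9 tested members in JEKO at 24 h and 72 h (7.03% and 6.51% of all tested genes), for 6 and 4 of 7 in MINO (19.9% and 12.4%) and for 5 and 7 of 9 in UPN-1 (7.79% and 5.15%). Below the filter, C1QL1 in JEKO and NPTXR in UPN-1 did not overlap at 72 h either.

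**Figure D2:**
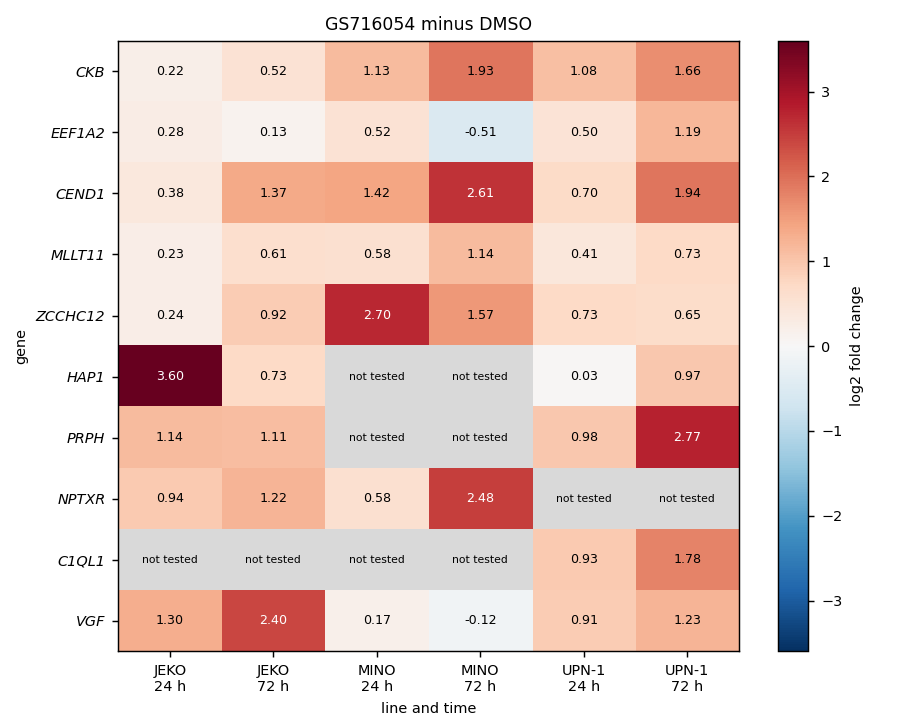
Log2 fold change of each gene with GS716054 against DMSO in each line at each time, from the fit of the line's 12 libraries, red for higher and blue for lower, grey where the gene did not pass the low-count filter. EEF1A2 and VGF in MINO at 72 h are the values below 0, and HAP1 in JEKO at 24 h rests on 2 DMSO counts.

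CKB, the brain-type creatine kinase that moves phosphate between ATP and creatine, reached its highest level in treated UPN-1 cells. In UPN-1 at 72 h it was counted at 56.0, 59.1 and 51.1 CPM with DMSO and at 184, 155 and 180 CPM with GS716054. The groups were far apart, with a log2 fold change of 1.66 (SE 0.132). At 24 h in the same line the DMSO libraries averaged 14.5 ± 0.457 CPM (SD, n = 3) and the treated libraries held 29.2, 37.7 and 26.1 CPM, a log2 difference of 1.08 (SE 0.143). In MINO at 72 h CKB stood at 6.53, 13.6 and 6.46 CPM with DMSO and at 28.7, 44.2 and 28.3 CPM with GS716054. Replicate 2 was the highest library in both of these groups, and the log2 difference was 1.93 (SE 0.311), or 2.10 (SE 0.241) without replicate 2 in either group. MINO at 24 h moved from a mean of 5.22 ± 0.955 (SD, n = 3) to 11.7 ± 3.42 CPM with no overlap between the groups. In JEKO the difference was smaller, 0.22 (SE 0.266) at 24 h with overlapping groups and 0.52 (SE 0.243) at 72 h, when the lowest treated library held 11.7 CPM and the highest DMSO library 10.9 CPM.

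EEF1A2, the elongation factor that brings aminoacyl-tRNA to the ribosome in brain and muscle, was higher with GS716054 in UPN-1 but not in MINO at 72 h. At 72 h in UPN-1 it was counted at 46.5, 49.5 and 44.7 CPM with DMSO and at 109, 104 and 104 CPM with GS716054, a log2 difference of 1.19 (SE 0.181). In MINO at 72 h it was counted at 57.7, 148 and 67.6 CPM with DMSO and at 52.0, 88.0 and 53.1 CPM with GS716054. Each treated MINO library lay below the DMSO library of its number, while the groups overlapped, and the log2 difference was -0.51 (SE 0.309). It was -0.01 (SE 0.219) without DMSO replicate 2 and -0.28 (SE 0.162) without replicate 2 in either group. In MINO at 24 h the treated libraries held 99.0, 103 and 72.3 CPM, all above the DMSO libraries at 68.4, 64.3 and 54.3 CPM. JEKO had the highest level of all lines, 253 ± 64.8 CPM with DMSO and 310 ± 69.7 CPM with GS716054 at 24 h, and 432 ± 14.5 against 470 ± 46.5 CPM at 72 h (SD, n = 3), with overlap at both times.

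CEND1, a membrane protein named for its part in cell cycle exit and neuronal differentiation, was higher with GS716054 in all 18 treated libraries than in the DMSO library of the same number. In MINO at 72 h it was counted at 1.08, 0.856 and 0.979 CPM with DMSO and at 5.88, 6.89 and 5.49 CPM with GS716054, a log2 difference of 2.61 (SE 0.338). In JEKO at 72 h the DMSO libraries held 13.0, 10.7 and 11.8 CPM and the treated libraries 30.5, 27.9 and 33.2 CPM, a log2 difference of 1.37 (SE 0.213). Neither pair of groups overlapped. In UPN-1 at 72 h the values were 1.03, 0.454 and 2.29 CPM against 3.92, 3.92 and 6.77 CPM, a log2 difference of 1.94 (SE 0.432) that was not called in the fit without pairs. At 24 h the differences were 0.38 (SE 0.207) in JEKO, where groups overlapped, 1.42 (SE 0.331) in MINO and 0.70 (SE 0.397) in UPN-1.

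MLLT11, a small protein first found as a fusion partner of KMT2A in leukaemia and abundant in developing neurons, was also higher in all 18 treated libraries than in their DMSO partners. In MINO at 72 h it was counted at 11.5, 12.4 and 15.1 CPM with DMSO and at 27.8, 29.9 and 29.3 CPM with GS716054, a log2 difference of 1.14 (SE 0.162). UPN-1 at 72 h held 32.8, 25.3 and 32.7 CPM with DMSO and 54.4, 42.8 and 52.0 CPM with GS716054, a log2 difference of 0.73 (SE 0.134). The treated libraries lay above all DMSO libraries of their line and time in every one of the 6 comparisons. The remaining differences were 0.23 (SE 0.127) and 0.61 (SE 0.128) in JEKO at 24 h and 72 h, 0.58 (SE 0.160) in MINO at 24 h and 0.41 (SE 0.136) in UPN-1 at 24 h. Exons of CDC42SE1 on the opposite strand overlap 7.2% of the exonic bases of MLLT11. In MINO at 24 h CDC42SE1 stood at 110 ± 3.85 CPM with DMSO and 147 ± 8.49 CPM with GS716054, and at 72 h at 79.8 ± 19.1 and 125 ± 15.1 CPM. Its part in the MLLT11 values was not tested.

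ZCCHC12, a zinc finger protein that assists transcription downstream of bone morphogenetic proteins, had its largest difference at the early time in MINO. There it was counted at 1.29, 1.20 and 1.23 CPM with DMSO and at 8.59, 7.69 and 8.56 CPM with GS716054, a log2 difference of 2.70 (SE 0.427). At 72 h in MINO the values were 0.384, 1.28 and 0.326 CPM against 1.18, 1.45 and 2.93 CPM, and the groups overlapped because DMSO replicate 2 was high. The log2 difference there was 1.57 (SE 0.485), or 2.50 (SE 0.489) without replicate 2 in either group. In JEKO at 72 h the treated libraries (8.26, 7.36 and 5.16 CPM) lay above the DMSO libraries (3.25, 4.50 and 3.25 CPM). In UPN-1 the gene stayed near 1 CPM or below in every group mean, and its groups overlapped at both times.

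HAP1, the huntingtin-associated protein that links vesicles to motor proteins, was rare. JEKO at 24 h had 1, 0 and 1 counts in its DMSO libraries against 9, 14 and 6 in the treated ones. Scaled for depth, the sums differed 14.4-fold, a ratio that rests on 2 DMSO counts. It was not called in the edgeR fit of the line, with or without the term for replicate number. At 72 h in UPN-1 it was counted at 2.22, 0.908 and 1.56 CPM with DMSO and at 3.21, 2.51 and 3.43 CPM with GS716054, a log2 difference of 0.97 (SE 0.379). In UPN-1 at 24 h the means were 1.24 ± 0.335 and 1.24 ± 0.482 CPM (SD, n = 3). In MINO HAP1 fell below the filter, with group sums of 8 to 16 counts.

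PRPH, the intermediate filament peripherin of peripheral neurons, exceeded 1.86 CPM in UPN-1 alone. In UPN-1 at 72 h it was counted at 2.85, 4.72 and 5.98 CPM with DMSO and at 18.5, 30.2 and 42.5 CPM with GS716054, a log2 difference of 2.77 (SE 0.492). Replicate 1 was lowest and replicate 3 highest in both groups, and the same order was seen at 24 h, when DMSO libraries held 0.193, 1.60 and 3.08 CPM and treated libraries 1.34, 2.67 and 5.92 CPM. All 12 MINO libraries had 0 counts of PRPH. In JEKO 1.86 CPM was its highest value, and at 72 h the treated libraries (1.19, 1.16 and 1.86 CPM) lay above the DMSO libraries (0.723, 0.474 and 0.739 CPM).

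Exons of TROAP-AS1, an antisense RNA of the neighbouring gene TROAP, overlap 71.5% of the exonic bases of PRPH on the opposite strand. Whether reads were counted by strand is not given in the sources used here. Without strand, reads from the shared bases cannot be assigned to 1 of the 2 genes. The part of the overlap in the PRPH values was not tested. At 72 h in UPN-1 TROAP-AS1 stood at 6.49, 7.63 and 7.46 CPM with DMSO and at 18.8, 28.2 and 36.7 CPM with GS716054, so both genes were higher and in the same order of libraries among the treated ones. In UPN-1 at 24 h TROAP-AS1 was at 5.55 ± 0.876 and 5.78 ± 1.38 CPM (SD, n = 3). In MINO, where PRPH was at 0, TROAP-AS1 was counted at group means of 2.50 to 4.72 CPM. In JEKO at 24 h the antisense gene was lower with GS716054, at 7.92, 4.98 and 9.68 CPM against 11.2, 10.8 and 13.2 CPM, while PRPH had 1, 9 and 9 counts with GS716054 and 1, 1 and 6 with DMSO. These PRPH groups overlapped, and the log2 difference of 1.14 (SE 0.759) became 2.45 (SE 0.928) without DMSO replicate 3. TROAP itself did not follow PRPH in UPN-1 at 72 h, at 38.9 ± 1.41 CPM with DMSO and 37.3 ± 6.36 CPM with GS716054.

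**Figure D3:**
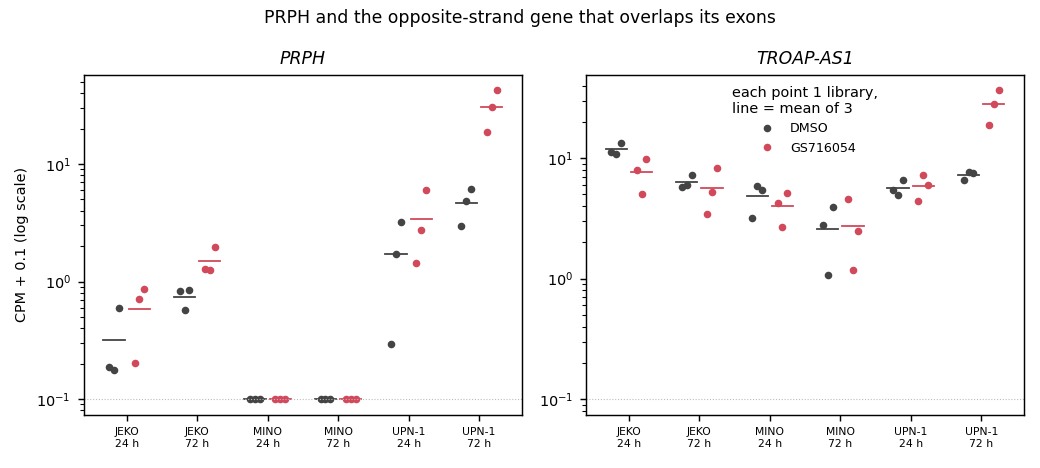
PRPH and the opposite-strand gene TROAP-AS1 in all 36 libraries, on a log axis of CPM + 0.1, with each point 1 library and bars the means of 3. Both genes are higher in the 3 treated UPN-1 libraries at 72 h, and in MINO TROAP-AS1 is counted while PRPH is at 0.

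NPTXR, the membrane-bound neuronal pentraxin receptor that helps cluster glutamate receptors, was higher with GS716054 in JEKO and MINO and nearly absent from UPN-1. In MINO at 72 h it was counted at 6.45, 11.2 and 4.83 CPM with DMSO and at 43.5, 37.9 and 43.1 CPM with GS716054. The lowest treated library lay far above the highest DMSO library, and the log2 difference was 2.48 (SE 0.258), or 2.91 (SE 0.203) without replicate 2 in either group. In JEKO at 72 h the DMSO libraries held 8.02, 7.50 and 7.54 CPM and the treated libraries 23.3, 17.0 and 13.5 CPM, a log2 difference of 1.22 (SE 0.216). Replicate 1, which stands apart in JEKO at 72 h, was the highest treated library, and without it in either group the difference was 1.02 (SE 0.223). At 24 h the differences were 0.94 (SE 0.227) in JEKO and 0.58 (SE 0.267) in MINO, with no overlap in either. In UPN-1 at 72 h it was counted 2, 2 and 0 times with DMSO and 5, 12 and 13 times with GS716054.

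C1QL1, a secreted protein of the C1q family that binds the receptor ADGRB3 at synapses, was measurable in UPN-1. At 72 h it was counted there at 2.61, 1.36 and 2.70 CPM with DMSO and at 7.44, 6.90 and 8.56 CPM with GS716054, a log2 difference of 1.78 (SE 0.275). At 24 h the values were 1.35, 1.18 and 1.90 CPM against 2.89, 2.88 and 2.92 CPM, a log2 difference of 0.93 (SE 0.307). The groups did not overlap at either time. JEKO at 72 h gave 3 counts in all with DMSO and 14 with GS716054, which differ 4.47-fold after scaling and lay below the low-count filter. MINO had 0 to 3 counts per group.

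VGF, a neuropeptide precursor stored in secretory granules and induced by nerve growth factor, was higher with GS716054 mainly in JEKO. At 72 h it was counted there at 2.38, 3.47 and 2.66 CPM with DMSO and at 19.6, 12.9 and 12.3 CPM with GS716054, a log2 difference of 2.40 (SE 0.285), or 2.04 (SE 0.304) without replicate 1 in either group. At 24 h the JEKO values were 3.57, 1.77 and 2.24 CPM against 6.90, 6.46 and 5.39 CPM, a log2 difference of 1.30 (SE 0.293). In MINO the groups overlapped at both times, with log2 differences of 0.17 (SE 0.276) and -0.12 (SE 0.264). In UPN-1 every treated library exceeded its DMSO partner, at levels of 0.548 to 1.79 CPM with GS716054 and 0.237 to 0.659 CPM with DMSO over both times, and without treated replicate 3 the difference at 72 h fell from 1.23 to 0.48.

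DMSO cells were next compared between 72 h and 24 h, a contrast that did not choose the genes but uses DMSO libraries of those that did. In JEKO CKB, NPTXR, EEF1A2 and HAP1 rose with culture time and CEND1 and MLLT11 fell. These are 4 and 2 of 9 tested members, in a line where 17.1% of 16690 genes were called higher and 14.6% lower. CKB rose by 1.27 (SE 0.259, edgeR adjusted p = 0.00353), from a mean of 3.84 ± 1.06 to 9.28 ± 2.54 CPM (SD, n = 3). CEND1 fell by 1.05 on the log2 scale (SE 0.214, edgeR adjusted p = 0.00351), from 18.2, 22.9 and 32.6 CPM to 13.0, 10.7 and 11.8 CPM. MLLT11 fell by 0.60 (SE 0.128, edgeR adjusted p = 0.00441), from 68.7 ± 1.08 to 45.3 ± 3.54 CPM. HAP1 went from 2 to 34 counts over 3 libraries (edgeR adjusted p = 0.00211). The ratio was 15.4 after scaling, with an exact 95% interval of 3.94 to 132. That interval covers counting error of the pooled reads only, not the spread between libraries.

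The other JEKO changes were less firm. EEF1A2 rose by 0.77 (SE 0.199, edgeR adjusted p = 0.0112), and its adjusted p was 0.0564 without DMSO replicate 2 at 24 h. NPTXR rose by 0.77 (SE 0.227, edgeR adjusted p = 0.021), with an adjusted p of 0.0799 or 0.0558 without DMSO replicate 2 or 3 at 24 h. In UPN-1 CKB alone among the 9 tested members was called, from a mean of 14.5 ± 0.457 CPM (SD, n = 3) to 56.0, 59.1 and 51.1 CPM, a rise of 1.94 (SE 0.142, edgeR adjusted p = 6.27e-06), where 1.35% of 15248 genes were called higher. CEND1 stood at -1.35 (SE 0.445, edgeR adjusted p = 0.0965) and EEF1A2 at 0.74 (SE 0.185, edgeR adjusted p = 0.0527) in UPN-1, and without DMSO replicate 3 at 72 h both passed, at adjusted p of 0.00843 and 0.0178. PRPH stood at 1.41 (SE 0.589, edgeR adjusted p = 0.155). With the replicate number as a block, 4 members were called (18.3% of all genes in either direction), with edgeR adjusted p of 0.0157 for CEND1, 0.00538 for EEF1A2 and 0.00539 for PRPH beside CKB. Same-number DMSO libraries of the 2 times correlated at 0.05 to 0.22 in this line.

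In MINO 0 of 7 tested members were called by edgeR over culture time, against 0.0932% of 15028 genes, while 3580 genes and 3 members (CKB, MLLT11 and VGF) had an unadjusted p under 0.05. DESeq2 also called 0 members there. The MINO values were 0.74 (SE 0.324) for CKB, 0.54 (SE 0.309) for EEF1A2 and -0.58 (SE 0.363) for CEND1. A test of whether the culture change differed among the 3 lines, added after seeing the data, called 0 of 10 members and 0.167% of 17980 genes by edgeR, with 3 members (CKB, HAP1 and MLLT11) at an unadjusted p under 0.05. HAP1 came nearest, with an edgeR adjusted p of 0.0553. In JEKO cells with GS716054, CEND1 was at 32.3 ± 7.40 CPM at 24 h and 30.5 ± 2.61 CPM at 72 h, and MLLT11 at 81.5 ± 5.19 and 69.0 ± 7.92 CPM (SD, n = 3).

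**Figure D4:**
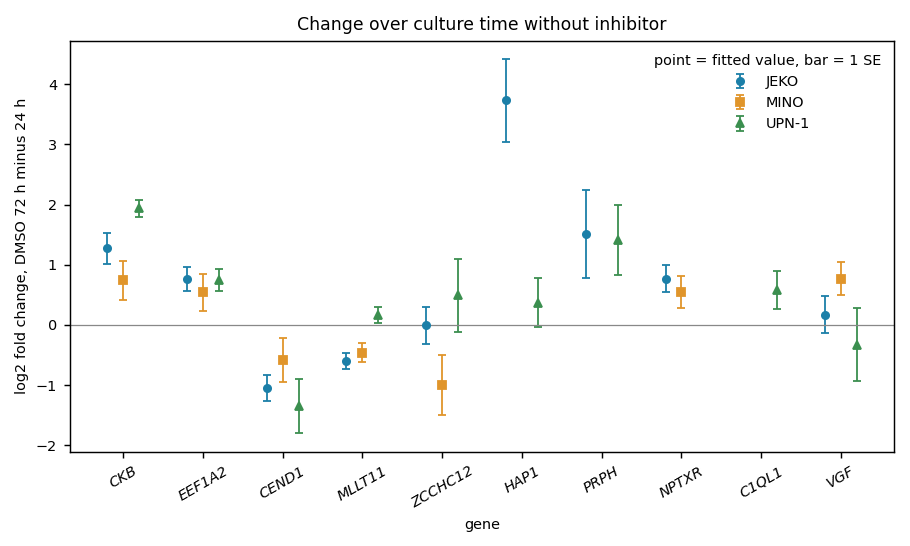
Log2 fold change of the 10 genes in DMSO cells at 72 h against 24 h, by line, with bars of 1 standard error. CKB is above 0 in all 3 lines (1.27, 0.74 and 1.94), CEND1 is below 0 in all 3 (-1.05, -0.58 and -1.35), and genes below the low-count filter of a line have no point.

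Baseline levels in DMSO at 24 h set the lines apart. These comparisons also share DMSO libraries with the contrasts that chose the genes. JEKO was highest for EEF1A2, CEND1, MLLT11 and ZCCHC12, and UPN-1 for CKB, PRPH, C1QL1 and HAP1. Against JEKO, 2 members were called higher and 5 lower in MINO (48.0% of 17980 genes called in either direction), and 4 higher and 6 lower in UPN-1 (44.9%). Against MINO, 6 were called higher and 4 lower in UPN-1 (44.4%).

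CEND1 stood at 24.6 ± 7.34 CPM in JEKO, 3.27 ± 1.00 in UPN-1 and 1.45 ± 0.602 in MINO (SD, n = 3). UPN-1 lay 2.90 below JEKO on the log2 scale (edgeR adjusted p = 5.33e-09) and 1.15 above MINO (SE 0.372, edgeR adjusted p = 0.0122). The last step lost its call without MINO replicate 1 (adjusted p = 0.0647) or 2 (0.0532), or without UPN-1 replicate 2 (0.0512) or 3 (0.0536). EEF1A2 followed JEKO, MINO, UPN-1, at 253 ± 64.8, 62.4 ± 7.27 and 28.1 ± 6.30 CPM, with adjusted p of 1.56e-07 for the first step and 0.000675 for the second (edgeR). MLLT11 followed JEKO, UPN-1, MINO, at 68.7 ± 1.08 and 27.3 ± 1.62 CPM (SD, n = 3) and at 17.3, 20.4 and 16.4 CPM in the MINO libraries, with adjusted p of 1.16e-09 and 0.000607 (edgeR).

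For ZCCHC12 the order was JEKO, MINO, UPN-1, at 3.69 ± 0.936, 1.24 ± 0.0488 and 0.474 ± 0.245 CPM (SD, n = 3), with edgeR adjusted p of 0.00248 and 0.0327 for the steps. The second step lost its call without MINO replicate 1 (adjusted p = 0.064), 2 (0.0599) or 3 (0.0629) or UPN-1 replicate 1 (0.155). CKB was highest in UPN-1 at 14.5 ± 0.457 CPM (edgeR adjusted p = 2.39e-05 against MINO), and MINO at 5.22 ± 0.955 and JEKO at 3.84 ± 1.06 CPM did not differ beyond their spread (adjusted p = 0.214). NPTXR did not differ between MINO and JEKO (5.05 ± 0.824 and 4.52 ± 0.523 CPM, edgeR adjusted p = 0.679) and had 3, 0 and 2 counts in UPN-1 (adjusted p = 2.88e-10 against MINO).

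VGF was at 4.30 ± 1.02 CPM in MINO, 2.53 ± 0.935 in JEKO and 0.527 ± 0.137 in UPN-1 (SD, n = 3). The step from JEKO to MINO had an edgeR adjusted p of 0.0495 and overlapping groups, and it lost its call without MINO replicate 1 (0.0888) or 2 (0.201) or JEKO replicate 2 (0.211) or 3 (0.135). This call was also lost by DESeq2 (adjusted p = 0.0587). In edgeR it was lost with DESeq2 size factors (0.0553), no low-count filter (0.0851) or the replicate number as a block (0.0528). UPN-1 lay below JEKO with an adjusted p of 4.05e-05. For HAP1 the order was UPN-1, MINO, JEKO, with 40, 10 and 2 counts over 3 libraries (edgeR adjusted p = 0.00228 and 0.02), and the second step lost its call without MINO replicate 2 (0.106) or JEKO replicate 2 (0.111). That step was also not called by DESeq2 (adjusted p = 0.0709) or by edgeR with no low-count filter (adjusted p = 0.0855). PRPH held 59 counts in UPN-1, 8 in JEKO and 0 in MINO, so UPN-1 was at least 18.6-fold higher than MINO on the limit of 3 counts over the group. The step from JEKO to UPN-1 (edgeR adjusted p = 0.00623) came with overlapping groups and lost its call without UPN-1 replicate 3 (0.105). C1QL1 held 51, 7 and 0 counts in UPN-1, JEKO and MINO. UPN-1 was at least 16.1-fold higher than MINO, and all 7 JEKO counts came from replicate 1, without which that line too was at 0. The MINO call against JEKO for C1QL1 also ended without any single MINO library (edgeR adjusted p of 0.0544 to 0.0694). With only the 9 DMSO 24 h libraries fitted it ended too (edgeR adjusted p = 0.0791).

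Levels of different genes were set side by side only per kilobase of exon. In DMSO cells at 24 h EEF1A2 led in JEKO (52.4 ± 13.4 CPM per kilobase) and MINO (12.9 ± 1.51), and MLLT11 led in UPN-1, ahead of CKB at 6.09 ± 0.192 (SD, n = 3). With GS716054 at 72 h CKB was highest in UPN-1, at 72.7 ± 6.59 CPM per kilobase against 23.2 ± 1.69 with DMSO. In MINO at 72 h CKB (14.2 ± 3.80) and EEF1A2 (13.3 ± 4.24) lay within their spread, after 3.72 ± 1.72 and 18.9 ± 10.3 CPM per kilobase with DMSO.

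Relatives and partners of the 10 genes were then examined, 47 genes listed by family. By edgeR, 1 of 23 tested was called in JEKO at 72 h (0.300% of all genes in either direction), 1 of 18 in MINO at 72 h (5.56%), and 0 at 24 h in JEKO (0.0180%), MINO (2.39%) and UPN-1 (0.0262%) and at 72 h in UPN-1 (0.334%). NPTX2, a secreted partner of NPTXR, rose in JEKO at 72 h from 2.67, 1.42 and 1.77 CPM to 8.26, 5.42 and 6.05 CPM, by 1.74 (SE 0.322, edgeR adjusted p = 0.0367). PCSK1N, a granin-like inhibitor of prohormone cleavage, rose in MINO at 72 h from 0.538, 2.68 and 0.914 CPM to 5.41, 8.25 and 8.24 CPM, by 2.46 (SE 0.477, edgeR adjusted p = 0.0105). The NPTX2 call was lost without JEKO GS716054 replicate 1 (adjusted p = 0.109), 2 (0.0663) or 3 (0.0872) or DMSO replicate 2 (0.0922) or 3 (0.166), and that of PCSK1N without MINO DMSO replicate 3 (0.0597).

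Unadjusted p-values under 0.05 numbered 0 to 6 of the list per comparison. With the term for each replicate number within a time, called here the replicate block, either-direction calls covered 0.0899% and 3.33% of all genes in JEKO at 24 h and 72 h, 15.8% and 20.2% in MINO and 7.47% in UPN-1 at 72 h, and higher calls covered 0.918% in UPN-1 at 24 h, where no list gene was called lower. In that fit the relatives called at 72 h were 2 higher for JEKO, 3 higher and 1 lower for MINO and 5 higher for UPN-1, with 4 higher for UPN-1 at 24 h. NPTX1, a partner of NPTXR, stood in UPN-1 at 72 h at 48.3, 71.1 and 41.8 CPM with DMSO and at 79.7, 97.9 and 106 CPM with GS716054, a log2 difference of 0.83 (edgeR adjusted p = 0.114, and 5.27e-05 with the replicate block). INA, a neuronal filament protein related to PRPH, was at 1.29 ± 0.712 and 4.38 ± 1.84 CPM there (adjusted p = 0.0975, and 0.00088 with the replicate block). CKM, the muscle creatine kinase, was at 1.32 ± 0.276 and 3.57 ± 0.441 CPM (adjusted p = 0.0998, and 0.00914 with the replicate block). EEF1A1, the general form of the elongation factor, had log2 differences of -0.15 to 0.23 over the 6 comparisons, and HTT, the binding partner of HAP1, of -0.10 to 0.12, none called. NEFL, NEFM, CHGA, CHGB, SCG2, CKMT1A, CKMT1B, CKMT2, C1QL2 and C1QL4 did not pass the low-count filter in any line.

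Of 36 genes of neuronal structure, 13 were tested in MINO and 2 were called at 72 h, both lower (5.56% of all genes in either direction). GPM6A, a neuronal membrane glycoprotein, fell by 1.95 on the log2 scale (SE 0.179, edgeR adjusted p = 0.000154), from 50.6, 55.0 and 49.5 CPM to 14.8, 10.2 and 15.6 CPM. MAP1B, a microtubule-associated protein, fell by 0.99 (SE 0.251, edgeR adjusted p = 0.038), from 47.9 ± 11.8 to 24.5 ± 6.58 CPM (SD, n = 3). The MAP1B call was lost without MINO GS716054 replicate 1 (adjusted p = 0.0574), 2 (0.0792) or 3 (0.0552) or DMSO replicate 1 (0.114) or 3 (0.129), and that of GPM6A was not lost in any alternative run. The other 5 comparisons had 0 edgeR calls in this list, with 1 to 7 genes at an unadjusted p under 0.05. With the replicate block, calls at 24 h were 3 higher and 1 lower of 13 for MINO (15.8% of all genes in either direction) and 2 higher of 17 for UPN-1 (0.918% higher). At 72 h they were 3 higher and 1 lower of 23 for JEKO (3.33% in either direction), 3 and 2 of 13 for MINO (20.2%), and 5 and 1 of 17 for UPN-1 (7.47%). The median log2 difference of the tested genes was 0.41 and 0.29 in JEKO at 24 h and 72 h, 0.70 and 0.31 in MINO, and 0.04 and 0.65 in UPN-1, against medians of -0.03 to 0.01 over all genes.

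Of 55 synapse and ion channel genes, 18 were tested in MINO, and 2 were called higher at 24 h (1.44% of all genes) and 4 at 72 h (3.51%), none lower. SNPH, syntaphilin, which anchors mitochondria in axons, rose at 72 h by 1.86 (SE 0.465, edgeR adjusted p = 0.0356). CACNA1A, a calcium channel, was called at 24 h (1.07, edgeR adjusted p = 0.0375) and at 72 h (0.92, edgeR adjusted p = 0.0369). Leaving out single libraries ended the calls of CACNA1A (adjusted p of up to 0.164 at 24 h without treated replicate 2 and up to 0.125 at 72 h without treated replicate 3) and of SNPH (up to 0.124 without DMSO replicate 1). In JEKO (29 tested) and UPN-1 (22 tested) 0 genes were called by edgeR at either time (2 to 8 at an unadjusted p under 0.05), and with the replicate block 6 were called higher in each at 72 h (1.89% and 4.18% of all genes).

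Among 36 neuronal transcription and splicing factors, 4 were tested in MINO and 2 were called at 72 h (5.56% of all genes in either direction). The other comparisons had 0 edgeR calls, with 1 to 3 genes at an unadjusted p under 0.05. LHX2, a homeodomain factor, rose from 0.154, 0.214 and 0.0653 CPM to 1.29, 1.27 and 1.04 CPM, by 3.03 (SE 0.675, edgeR adjusted p = 0.0214). Each of these DMSO values was under 3 counts, so the size of the rise rests on few reads. ISL2, another homeodomain factor, fell from 15.4, 17.7 and 19.5 CPM to 11.9, 8.16 and 10.2 CPM, by 0.81 (SE 0.201, edgeR adjusted p = 0.0342). The LHX2 call was lost without MINO DMSO replicate 1 (adjusted p = 0.086) or 3 (0.108) or treated replicate 1 (0.0511), and the ISL2 call without DMSO replicate 1 (0.063) or 3 (0.117) or treated replicate 2 (0.074) or 3 (0.0816). REST and 24 genes of its complexes, the KDM5 genes included, had 0 calls among 25 tested in each of the 6 comparisons by edgeR, with 1 to 5 at an unadjusted p under 0.05 and medians of 0.02 to 0.08; DESeq2 called 3 in all. With the replicate block, MINO had 5 higher and 1 lower at 24 h (15.8% of all genes in either direction) and 2 higher at 72 h (10.4% higher), and UPN-1 had 2 and 4 higher at these times (0.918% and 4.18%). REST stood at 62.0, 58.4 and 65.6 CPM with DMSO and at 80.1, 80.3 and 80.4 CPM with GS716054 in MINO at 24 h, a log2 difference of 0.34 (SE 0.118, edgeR adjusted p = 0.149, and 0.0427 with the replicate block), and its differences elsewhere were 0.05 to 0.24.

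**Figure D5:**
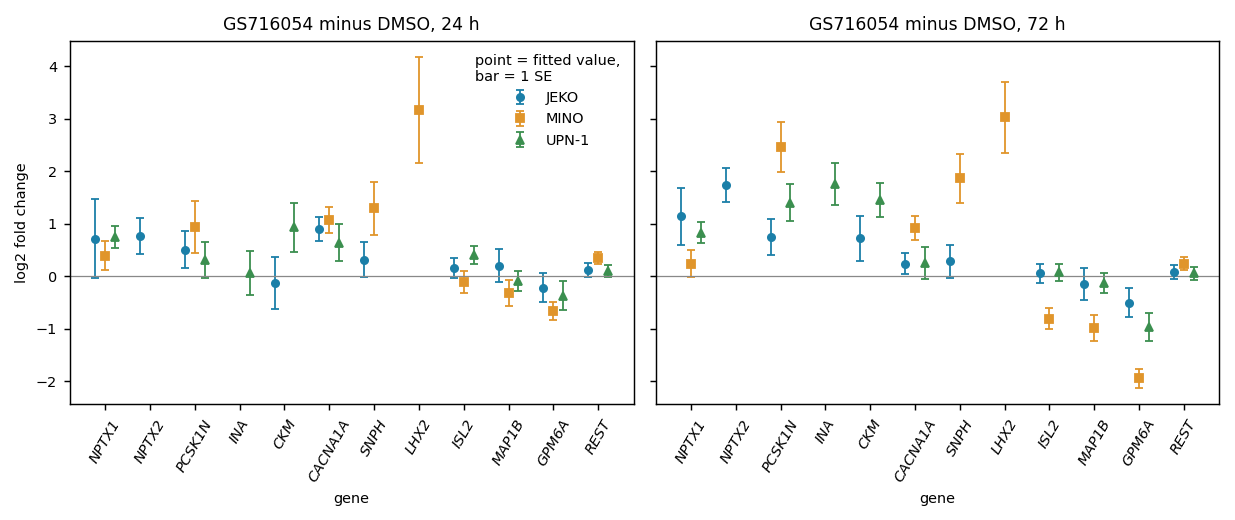
Log2 fold change with GS716054 against DMSO for relatives and neuronal list genes named in the text, at 24 h and 72 h, by line, with bars of 1 standard error. MINO at 72 h holds both the rises (LHX2 at 3.03, PCSK1N at 2.46, SNPH at 1.86) and the falls (GPM6A at -1.95, MAP1B at -0.99, ISL2 at -0.81), and REST lies near 0. LHX2 had under 3 counts in each DMSO library of MINO at 72 h.

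The 10 genes varied together to different degrees. With each line centred on its own mean, the 45 pairs of members correlated across the 36 libraries at 0.03 to 0.82 (Pearson's r of log2 CPM, median 0.42), and 13 pairs exceeded 0.5. PRPH and EEF1A2 (0.82), CKB and NPTXR (0.77) and CEND1 and MLLT11 (0.75) were the closest. The points share lines, treatment and library, so the values describe and test nothing. Among 12931 genes measured in every line, those most like the mean profile of the 10 over the 36 libraries were TP53I11 (Pearson's r = 0.92), LINC00426 (0.85), CRB2 (0.85), SLC15A3 (0.83) and CD248 (0.82). TP53I11 stood at 52.5 ± 5.46 CPM with DMSO and 89.3 ± 8.80 CPM with GS716054 in UPN-1 at 72 h, and at 69.5 ± 4.45 and 103 ± 14.0 CPM in JEKO (SD, n = 3).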

How the data were processed

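Total RNA of 3 cell lines was prepared with a Qiagen mRNA kit, per the labels. The submitters' processing notes name HISAT2 2.2.1, HTSeq 0.13.5 and GRCh38; the annotation release and the strand setting of the counting are not given in the sources used here. The authors deposited raw read counts per gene ID for each library, with no normalisation stated. The summary lines that name no gene, 55.1% to 59.3% of all reads, were left out. Symbols and exons came from GENCODE v44, which named 57532 of 58302 IDs, and promoters from RefSeq.

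Counts were fitted with edgeR 4.0.16 in R 4.3.3: a quasi-likelihood model per line over its 12 libraries with a coefficient per group, TMM scaling, filterByExpr (minimum count 10, minimum total 15), 8 residual degrees of freedom and Benjamini-Hochberg adjustment over all genes tested. Lines were compared in a fit of all 36 libraries. Fold changes are log2. Figures were drawn with matplotlib 3.10.9. P-values measure the spread between the labelled biological replicates.

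Pairing by replicate number was checked on deviations from group means. In 5 of the 6 inhibitor comparisons every same-number pair correlated above 0.1; in JEKO at 24 h 1 pair was at 0.05. In the culture and line comparisons it did not hold throughout.

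The members and lists were chosen with earlier results of these data known. Named are all members, in each list up to 3 called genes per direction and comparison, the closest relatives, REST, overlap partners and the 5 genes of most alike profile. Some list genes that this rule names are counted but not reported here. The alternatives were DESeq2 1.42.0 size factors and test, no filter, a minimum count of 50, fewer or more libraries in the fit, replicate blocks and leaving out each library.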

Additional observations from a re-analysis of the deposited data

Results flagged for a closer look

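EEF1A2 at 72 h went opposite ways in 2 lines. In all 3 MINO pairs the GS716054 library was lower than its DMSO partner, with a log2 fold change of -0.51, and in all 3 UPN-1 pairs it was higher, with a log2 fold change of 1.19. The MINO groups overlapped, and the MINO value, which was not called (SE 0.309), was -0.01 without DMSO replicate 2 and -0.28 without replicate 2 in either group. The difference between the lines was not tested.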

How the results depend on the processing

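In this section the replicate block is a term per replicate number shared by both times. The block within each time is the fit that the list results above call the replicate block. The alternatives gave 701 values for members in the inhibitor comparisons, of which 691 moved by less than 1 SD and 10 moved more. No called value changed direction, and 6 uncalled ones did, each without 1 library. ZCCHC12 in JEKO at 24 h went from 0.24 to -0.07, VGF in MINO at 72 h from -0.12 to 0.06 and 0.07, and HAP1 in UPN-1 at 24 h from 0.03 to -0.01, -0.25 and -0.18. Of 689 values in the culture and line comparisons, 637 kept their call, 29 lost it, 15 gained one and 8 changed sign, none of these 8 called. Left out of the 689 is C1QL1 for MINO against JEKO without JEKO replicate 1, where the log2 value was 0.00 and the call was lost too. VGF in JEKO over culture time went from 0.17 to -0.03 without DMSO replicate 2 at 24 h, and the values without 1 library ran from -0.03 to 0.52. ZCCHC12 in JEKO over culture time went from -0.01 to 0.07 with a minimum count of 50, to 0.01 with just the 6 libraries of the contrast fitted, to 0.01 with the replicate block, to 0.08 without DMSO replicate 1 or 3 at 72 h, and to 0.19 and 0.03 without DMSO replicate 1 or 3 at 24 h, over a range of -0.18 to 0.19 without 1 library. The cause was not tested for any change given here. The share of all genes called also differed between settings, so nothing about the members or lists is read from the counts that follow. In MINO at 24 h, for example, higher calls covered 1.44% of all genes in the main fit. They covered 8.43% with the replicate block within each time. Counts of members called higher with GS716054 were, for JEKO at 24 h, 1 with no low-count filter, 1 with all 36 libraries and 1 by DESeq2. For JEKO at 72 h they were 0 with the 6 libraries, 5 with the replicate block within each time and 1 without either library of number 1. For MINO at 24 h they were 5 with the 6 libraries, 4 with all 36, 5 with the replicate block within each time and 4 by DESeq2. For UPN-1 they were 0 with all 36 and 4 with the replicate block within each time at 24 h, and 3 with the 6 libraries at 72 h. Over culture time in UPN-1, members called were 4 with no filter, 2 with a minimum count of 50, 4 with the replicate block and 3 by DESeq2; for MINO against JEKO they were 4 with the 6 libraries. The test of whether culture changes differ among lines called 1 member with DESeq2 size factors, 1 with no filter and 1 with the replicate block.

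Summed over the 6 inhibitor comparisons, relatives called were 10 with no filter, 1 with the 6 libraries, 1 with all 36, 8 with the replicate block, 15 with the block within each time and 7 by DESeq2. Neuronal structure genes were 13 with no filter, 5 with the 6 libraries, 8 with the replicate block, 21 with the block within each time and 7 by DESeq2. Synapse genes were 16 with no filter, 11 with the replicate block, 23 with the block within each time and 13 by DESeq2. Neuronal regulators were 1 with a minimum count of 50, 0 with the 6 libraries, 4 with the block within each time and 1 by DESeq2. REST complex genes were 1 with no filter, 7 with the 6 libraries, 1 with all 36, 14 with the block within each time and 3 by DESeq2. These list counts stand without the share of all genes called in each setting, so they are no result about the lists. Leaving out each library gave members called of 0 to 0 in JEKO at 24 h, 1 to 2 at 72 h, 0 to 1 in MINO at 24 h, 4 to 5 at 72 h, 0 to 1 in UPN-1 at 24 h and 1 to 6 at 72 h. Over culture time they were 4 to 6 in JEKO, 0 to 0 in MINO and 1 to 3 in UPN-1, and between lines 4 to 6, 9 to 10 and 8 to 9. The lists gave 1 to 5 relatives, 1 to 5 structure, 4 to 8 synapse, 0 to 3 regulator and 0 to 2 REST complex genes, and the test among lines 0 to 1. At 8784815 to 14970876 gene reads, genes with a few counts per library, such as HAP1 in JEKO and C1QL1 outside UPN-1, are limited by depth.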
